A study of Mus musculus with 6 samples.

Results

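The 9 genes described here belong to bone morphogenetic protein (BMP) signalling: the ligands Bmp4 and Bmp7, the receptor Bmpr1a, the inhibitory Smads Smad6 and Smad7, and the Id genes Id1, Id2, Id3 and Id4. They were taken as a named list, chosen with earlier results of these data known, and all 9 are among the 31028 gene symbols of the single-cell RNA matrices. Of the 8269 symbols in the chromatin accessibility (ATAC) gene matrices, 7 are list members, and Smad6 and Id4 are not listed there. The study dissected pancreatic tissue of C57BL/6 mouse embryos that were either wild type (Ptf1a+/+, WT) or homozygous for a deleted enhancer of Ptf1a (Ptf1aenh-delta/enh-delta, here KO). Ptf1a is a bHLH transcription factor needed for pancreas formation. At embryonic day (E) 10.5, the tissue called multipotent progenitor cells (MPCs) in the labels, pooled from 5 to 9 embryos per library, gave one 3′ RNA library and one nuclear ATAC library for each genotype. At E13.5, pancreata of 6 embryos per library gave one ATAC library for each genotype. Each group therefore rests on 1 library of pooled embryos, so no difference below has a replicate check and no test between conditions was possible.

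BMP ligands are secreted proteins of the TGF-beta superfamily. They bind pairs of type I receptors, such as Bmpr1a, and type II receptors, which phosphorylate Smad1, Smad5 and Smad9, and these enter the nucleus with Smad4. Id genes are direct transcriptional targets of that complex and encode helix-loop-helix proteins without a DNA-binding region, which hold E proteins such as Tcf3, Tcf4 and Tcf12 away from tissue-specific bHLH factors. Smad6 and Smad7 are targets that feed back to inhibit the pathway. In the mouse embryo, BMP from the mesenchyme next to the foregut favours liver fate in the neighbouring endoderm, and endocrine differentiation in the pancreas depends on bHLH factors such as Neurog3.

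The upstream sequences of the Id genes are shown because Smad complexes are known to bind GC-rich letters near these genes. RefSeq windows of build GRCm38.p6 matched 6 of the 9 genes by symbol, and Bmp7, Smad7 and Id1 are named only. The 250 bases before the annotated start follow 5′ to 3′ on the gene's strand for Id2 (chr12:25096093-25096342, minus strand), Id3 (chr4:136143572-136143821, plus strand) and Id4 (chr13:48260866-48261115, plus strand), and capitals mark GGCGCC.
Id2: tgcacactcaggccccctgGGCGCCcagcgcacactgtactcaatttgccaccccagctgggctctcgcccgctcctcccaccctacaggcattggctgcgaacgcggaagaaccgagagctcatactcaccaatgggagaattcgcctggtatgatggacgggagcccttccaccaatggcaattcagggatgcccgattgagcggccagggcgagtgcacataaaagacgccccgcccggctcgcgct
Id3: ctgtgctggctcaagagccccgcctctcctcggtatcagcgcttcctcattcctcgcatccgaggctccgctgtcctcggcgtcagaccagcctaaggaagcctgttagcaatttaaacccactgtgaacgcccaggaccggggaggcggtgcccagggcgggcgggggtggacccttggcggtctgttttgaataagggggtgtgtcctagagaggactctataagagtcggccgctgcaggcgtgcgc
Id4: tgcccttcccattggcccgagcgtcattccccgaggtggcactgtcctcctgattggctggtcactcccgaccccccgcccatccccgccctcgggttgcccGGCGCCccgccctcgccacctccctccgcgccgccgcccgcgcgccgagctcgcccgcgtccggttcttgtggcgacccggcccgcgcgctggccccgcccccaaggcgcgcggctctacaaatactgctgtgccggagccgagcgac

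GGCGCC, which is its own reverse complement, began 231 bases before the Id2 start and 148 bases before the Id4 start, once in each window, and was not in the Id3 window. Of the 6 matched genes it was also in the Bmpr1a window, once, 198 bases before the start, and not in those of Bmp4 and Smad6. Of all 32851 windows of the same length, 3149 (9.59%) held it. CAGACA, or TGTCTG on the other strand, was in none of the 6 windows and in 5628 (17.1%) of all. GGCGCC with GTCT beginning 5 bases after its end, read on either strand, overlaps GGCGCC by its construction and was in none of the 6 and in 23 (0.0700%) of all. The windows are GC-rich, at 62.8% for Id2, 62.8% for Id3 and 75.6% for Id4 against a median of 52.4% over all windows. These matches describe letters in the reference, not binding sites.

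The RNA libraries held 1104 WT and 815 KO barcodes with 4665222 and 4360076 unique molecular identifiers (UMIs, one per captured RNA molecule). Cells were kept at 1000 or more detected genes, which left 451 WT and 369 KO cells at a median of 6700 and 9856 UMIs. One barcode sequence occurred in both RNA libraries, none in both E10.5 ATAC libraries and 2 in both E13.5 ATAC libraries. Ptf1a had 142 UMIs in the kept WT cells, 34.6 CPM (UMIs of a group scaled to a common total), and 0 UMIs in the KO cells, which allows up to 0.748 CPM. In WT it was highest in the progenitor class, at 74.4 CPM. The barcode prefixes of the E13.5 ATAC libraries name different months, so genotype and month cannot be told apart there.

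Cells were clustered and named from marker lists. The mesenchymal class (151 WT and 101 KO cells) was 1 cluster led by Plagl1, Zeb2, Fbn2, Nkx2-3 and Barx1. Its summed mesenchymal markers reached 1338 and 1426 CPM in WT and KO, against 93.5 to 193 CPM in the other 3 classes. It also carried progenitor markers, at 918 and 729.6 CPM, and pan-epithelial ones, at 929.8 and 1464 CPM, and its median depth was 2524 and 2535 UMIs. The progenitor class (108 WT and 35 KO cells, at 13016.5 and 17558 UMIs) had progenitor marker sums of 2714 and 1586 CPM, and Cpa1, a tip and acinar gene, was at 0 in KO. Its hepatobiliary markers summed to 875 CPM in WT and 2181 CPM in KO. In KO they thus exceeded its own progenitor markers, which limits each ratio over KO progenitors. The hepatobiliary-like class was small, with 15 WT and 38 KO cells. Its markers, liver and bile duct genes, summed to 3245 and 3909 CPM, and endocrine cells summed to more (7544 and 6000.1 CPM), nearly all of it Ttr. The endocrine class (59 WT and 128 KO cells) had 31168 and 27980.5 CPM of endocrine markers, most of it Gcg, which encodes glucagon.

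A further cluster of 28 WT and 46 KO cells held both endocrine and mesenchymal markers and was kept apart as mixed. After thinning to 2000 UMIs, 43.2% of its cells had UMIs of at least 2 markers of both lists, against 8.59% of mesenchymal and 3.24% of endocrine cells. The rest were 7 WT and 2 KO endothelial-like cells and an unnamed cluster of 83 WT and 19 KO cells. Intervals below are exact 95% intervals and cover counting error only, since each value comes from 1 library. The clusters were built from these same cells, with the 9 genes and the pathway list left out of the genes clustered on, so a difference between classes is a description. Bmp7 was among the 10 leading genes of 1 progenitor cluster, and Bmp4 among those of the mixed cluster.

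The ligand Bmp4 was sparse in the named classes and differed in where it was found. In mesenchymal cells it had 14 UMIs in WT, 16.6 CPM (interval 9.05 to 27.8), and 5 UMIs in KO, 8.60 CPM (2.79 to 20.1). Progenitor cells had 3.45 CPM in WT, from 5 UMIs, and 0 in KO, which allows up to 4.92 CPM. The mesenchymal WT level was thus 4.81 times that of progenitors (interval 1.64 to 17.1), on few molecules. Endocrine cells had 0 Bmp4 UMIs in WT, a limit of 4.38 CPM, and 4 UMIs in KO, 3.06 CPM. Hepatobiliary-like cells had 1 UMI in WT and 7 in KO, 4.92 and 12.4 CPM, with intervals that overlap those of mesenchyme. No neighbouring classes in the order of Bmp4 levels differed beyond their counting error in either library.

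The highest Bmp4 level lay outside the named classes, in the mixed cluster, at 36.1 CPM in WT (21.7 to 56.3) and 17.7 CPM in KO (9.91 to 29.2). Those 19 WT UMIs came from 4 of its 28 cells, and the 15 KO UMIs from 6 of its 46. They made up 19 of all 43 Bmp4 UMIs in kept WT cells and 15 of 32 in KO. When the mixed cluster was divided again, the part named mesenchymal held all of them, at 53.3 and 26.8 CPM. The part named endocrine had 0 in both libraries. The mesenchymal part (50 cells, median 18789 UMIs) still carried 7678 CPM of endocrine markers beside 1449 CPM of mesenchymal ones. The mesenchymal class had 438 and 299 CPM of endocrine markers in WT and KO, so that part was still mixed. Doublets were called in 1 WT and 4 KO cells of that cluster, and their part in the Bmp4 level was not tested.

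Bmp7, a ligand of the same superfamily that epithelia often produce, was highest in progenitor cells in both libraries. It stood at 89.6 CPM in WT (74.8 to 106) and 112 CPM in KO (86.6 to 141). Mesenchymal cells followed at 42.6 and 58.5 CPM, hepatobiliary-like cells at 29.5 and 30.1 CPM, and endocrine cells came last at 10.2 and 10.7 CPM. The order of the 4 classes was the same in WT and KO. Progenitors exceeded mesenchyme 2.10-fold in WT (1.44 to 3.13) and 1.91-fold in KO (1.245 to 2.97). Mesenchymal and hepatobiliary-like cells could not be separated beyond counting error in WT (ratio 1.44, 0.602 to 4.19), nor could hepatobiliary-like and endocrine cells (ratio 2.89, 0.803 to 10.0).

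Bmpr1a, the type I receptor, was present in all 4 classes and varied least between them in relative terms. It reached 89.9 CPM in WT and 99.8 CPM in KO in mesenchymal cells, the highest class in both libraries. Endocrine cells had 55.5 and 74.1 CPM, progenitor cells 48.9 and 80.4 CPM, and hepatobiliary-like cells 44.3 and 53.2 CPM. Only the step from mesenchymal to endocrine cells in WT, 1.62-fold (1.08 to 2.46), was beyond counting error between neighbours in the order.

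The inhibitory Smads had different patterns. Smad6, which acts mainly against BMP receptors, was highest in mesenchyme, at 21.3 CPM in WT (12.6 to 33.7) and 25.8 CPM in KO (14.4 to 42.6). Progenitor cells had 7.58 and 8.20 CPM and endocrine cells 2.92 and 4.58 CPM. In hepatobiliary-like cells 0 UMIs in WT allow up to 14.8 CPM, and the KO level was 12.4 CPM. The mesenchymal over progenitor ratio was 2.81 in WT (1.26 to 6.58) and 3.15 in KO (1.09 to 11.1). Smad7, which also blocks TGF-beta and activin receptors, set the endocrine class apart instead. It stood at 73.9 and 70.9 CPM in hepatobiliary-like cells, 58.0 and 63.7 CPM in mesenchyme and 40.0 and 54.1 CPM in progenitors, neighbours that did not differ beyond counting error. Endocrine cells had 7.30 CPM in WT (2.37 to 17.0) and 11.5 CPM in KO (6.41 to 18.9), below every other class.

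**Figure D1:**
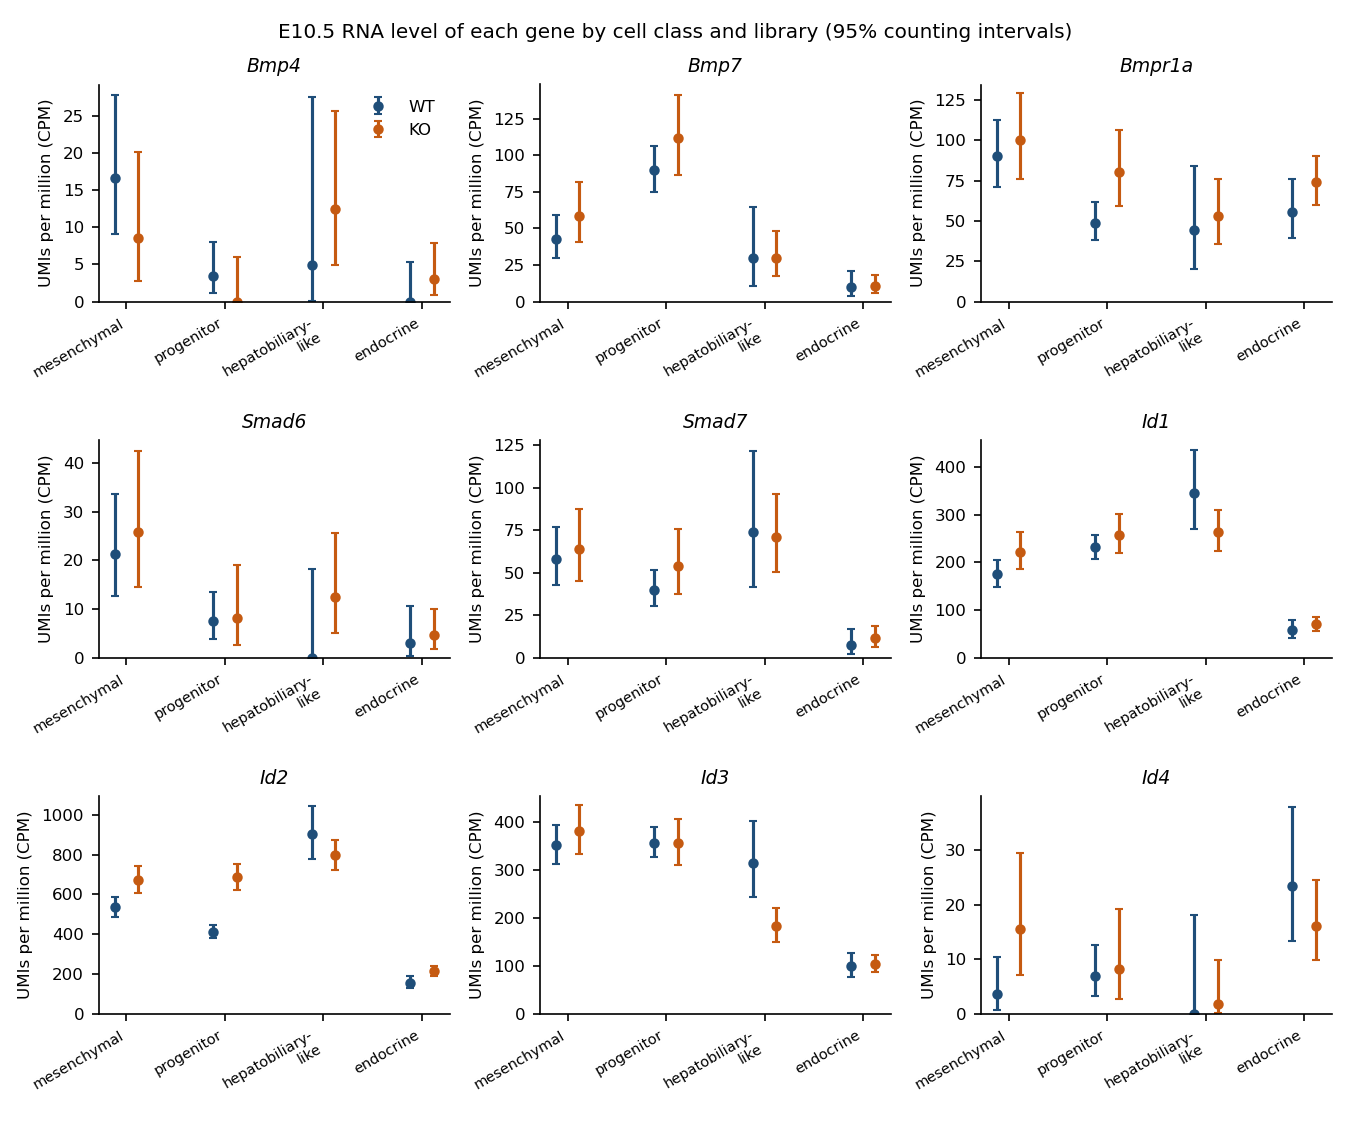
RNA level of each of the 9 genes (panels; CPM, linear axis from 0, each panel with its own scale) in mesenchymal, progenitor, hepatobiliary-like and endocrine cells at E10.5. Points are the WT and KO libraries, 1 each, and bars are exact 95% intervals for counting error; Bmp7, Smad7, Id1, Id2 and Id3 are lowest in endocrine cells, and the WT level of Id4 is highest there.

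The Id targets Id1, Id2 and Id3 shared one feature, their lowest level in endocrine cells of both libraries. Id1 stood at 58.4 CPM in WT endocrine cells and 70.3 in KO, against 175 and 222 in mesenchyme, 232 and 257 in progenitors and 345 and 264 in hepatobiliary-like cells. Id2 stood at 155 and 212 CPM in endocrine cells, 535 and 675 in mesenchyme and 412 and 686 in progenitors. Hepatobiliary-like cells had the highest Id2 of the 4 classes, 906 CPM in WT (779.9 to 1047) and 797 CPM in KO (725 to 875). Their lead over the next class was beyond counting error in both libraries, 1.69-fold over mesenchyme in WT (1.42 to 2.02) and 1.16-fold over progenitors in KO (1.02 to 1.33). For Id1 the hepatobiliary-like class led by 1.49-fold in WT (1.13 to 1.93) and by 1.03-fold in KO (0.814 to 1.29). Id3 did not share that lead: progenitor cells had 357 and 356 CPM, mesenchyme 351 and 382, hepatobiliary-like cells 315 and 183 and endocrine cells 99.3 and 103. In WT, progenitor, mesenchymal and hepatobiliary-like cells did not differ in Id3 beyond counting error from their neighbours in the order.

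Id4 went the other way from Id1 to Id3 in WT. Endocrine cells had 23.4 CPM (13.4 to 37.9) against 6.89 in progenitors and 3.55 in mesenchyme, and hepatobiliary-like cells had 0 UMIs, which allows up to 14.8 CPM. The endocrine lead over progenitors was 3.39-fold (1.45 to 8.36). Thinning to 2000 UMIs per cell left too few Id4 UMIs to decide on that lead. Of thinned cells, 0 of 58 WT endocrine cells had an Id4 UMI (interval up to 6.16%) and 2 of 106 WT progenitors (1.89%, up to 6.65%). In KO the endocrine level was 16 CPM (9.93 to 24.5), next to 15.5 in mesenchyme, 8.20 in progenitors and 1.77 in hepatobiliary-like cells, and no neighbours in that order differed beyond counting error. Within the WT endocrine cells, the cluster led by Cartpt, Ins1 and Ghrl, hormone and peptide genes, had 52.6 CPM from 10 UMIs in 13 cells. The other endocrine cluster, led by Chgb, Sct, Cck and Neurog3, had 12.1 CPM in 46 cells. In KO these clusters had 20.5 and 14.2 CPM.

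Depth differed several-fold between classes, so Id2 was also counted in cells thinned to 2000 UMIs. Cells with an Id2 UMI were then 22.4% of WT and 22.8% of KO endocrine cells, against 58.4% and 71.0% of mesenchymal, 52.8% and 64.7% of progenitor and 83.3% and 77.8% of hepatobiliary-like cells. Cells deep enough to thin were 58 WT and 127 KO endocrine, 101 and 62 mesenchymal, 106 and 34 progenitor and 12 and 36 hepatobiliary-like cells. Without thinning the WT and KO shares were 61.0% and 54.7% for endocrine, 70.2% and 67.3% for mesenchymal, 86.1% and 97.1% for progenitor and 100% and 97.4% for hepatobiliary-like cells. The endocrine class was thus lowest on both counts. Barcodes under the gene minimum, which can hold shallow cells and free RNA, had Id2 at 451 and 448 CPM, above the endocrine levels. No class here is known to lack Id2, so the share that free RNA gives was not tested.

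Proliferation markers moved with the same classes. Their sum was 202 and 173 CPM in endocrine cells, against 1277 to 2037 CPM in the other 3 classes. Among thinned WT progenitors, Id2 was 378 CPM in the 74 cells with a UMI of such a marker and 359 CPM in the 32 cells without one. Endocrine cells without such a UMI had 163 CPM in WT, from 46 cells, and 267 CPM in KO, from 88 cells. Endocrine cells with such a UMI had Id2 at 83.3 CPM in WT (2 UMIs in 12 cells) and 38.5 CPM in KO (3 UMIs in 39 cells, interval 7.93 to 112). In KO this interval lay below that of the cells without one (196 to 355), on few UMIs. Id1 in the WT progenitors with and without a marker UMI and in the WT endocrine cells without one was 189, 188 and 76.1 CPM. The endocrine values were lower in point value among cells without a detected proliferation marker as well, but on few UMIs. The WT intervals for Id2 without such a UMI were 228 to 539 CPM in progenitors (23 UMIs) and 91.3 to 269 CPM in endocrine cells (15 UMIs). They overlapped, but overlap of such intervals does not decide whether the levels differ, and no interval of the ratio was computed. A cell without a marker UMI at this depth can still be proliferating, so the part of proliferation in the Id levels was not tested.

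Set against progenitors with a threshold of 2-fold on log2(CPM + 10) and at least 50 UMIs over both groups, endocrine cells were lower for 5 of the 6 members with enough UMIs in WT, where 16.6% of all genes passed the threshold in either direction. The 5 were Bmp7, with a ratio of 0.114 (0.045 to 0.242), Smad7 at 0.183 (0.0572 to 0.451), Id1 at 0.252 (0.177 to 0.351), Id3 at 0.278 (0.213 to 0.359) and Id2 at 0.376 (0.303 to 0.463). The exception was Bmpr1a, at 1.13 (0.744 to 1.70). In KO, Bmp7, Id1, Id2 and Id3 were lower past 2-fold, 4 of the 5 members with enough UMIs, against 16.8% of all genes, with ratios of 0.0959, 0.273, 0.31 and 0.29. Smad7 had too few UMIs there, at a ratio of 0.212 (0.107 to 0.401). These counts do not stand for all 9 members. Bmp7 and, in WT, Smad7 and Id1 passed the UMI minimum through progenitors, where they were high. Id4, higher in endocrine cells, did not pass it.

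Hepatobiliary-like cells differed from progenitors past 2-fold in 2 of 6 members in WT, against 5.48% of all genes. Id2 was higher, with a ratio of 2.20 (1.85 to 2.60), and Bmp7 lower, at 0.33 (0.119 to 0.738). In KO the count was 1 of 6, Bmp7 at 0.27 (0.149 to 0.465), against 3.39% of all genes, and the Id2 ratio was 1.16 (1.02 to 1.33). Bmp7 passed the UMI minimum through progenitors, where it was high, so these counts do not stand for all members. With progenitor cluster 3 alone as the reference, the WT count was 1, Bmp7, and the log2 ratio of Id2 was 0.93. Mesenchymal cells passed 2-fold in 0 of 6 members in WT and 0 of 6 in KO, where 5.61% and 4.55% of all genes did and the median log2 ratio of all genes was 0.11 and 0.0082. Bmp7 came nearest, with a WT ratio of 0.475 (0.319 to 0.692) that the added 10 CPM drew to a log2 ratio of -0.92. It passed 2-fold under most other settings, with a log2 ratio of -2.19 at a Leiden resolution of 0.3. Bmpr1a was higher in mesenchyme in WT, at 1.84 (1.31 to 2.58), under the threshold.

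The KO and WT libraries were then compared within each class. No member with enough UMIs passed 2-fold in any class: 0 of 6 in mesenchymal cells (background 0.807%), 0 of 6 in progenitors (3.09%), 0 of 4 in hepatobiliary-like cells (2.57%) and 0 of 4 in endocrine cells (0.501%). The background shares are low, so the counts of 0 do not set the members apart from other genes. The member with the widest ratio beyond counting error in progenitors was Id2, 412 CPM in WT and 686 in KO, a ratio of 1.66 (1.46 to 1.89). Bmpr1a had a similar ratio there, 1.64 (1.12 to 2.40), and Id3 a ratio of 0.997 (0.847 to 1.17). Markers of other classes differed between the same progenitor groups. Hepatobiliary markers summed to 875 CPM in WT and 2181 in KO, where Onecut2 was the highest at 956 CPM, and pan-epithelial markers to 2637 and 4433 CPM, and their part in the Id2 ratio was not tested. The median log2 ratio of all genes tested in progenitors was 0.18, with the log2 ratio of Id2 at 0.72, and of Bmpr1a at 0.62.

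The progenitor class did not have the same clusters in both libraries, since cluster 6 held 51 WT cells and a single KO cell. Within cluster 3, which held 57 WT and 34 KO cells, Id2 was 469 CPM in WT and 681 in KO, Id1 263 and 257, and Id3 447 and 357. The WT cells of cluster 6 had lower levels, Id1 181, Id2 322 and Id3 215 CPM. In hepatobiliary-like cells Id3 was 315 CPM in WT and 183 in KO, a ratio of 0.579 (0.42 to 0.804), with 15 WT cells behind the WT value. In endocrine cells the Id2 ratio was 1.37 (1.09 to 1.73). In mesenchyme it was 1.26 (1.10 to 1.45). That direction turned at a Leiden resolution of 0.8, where 85 WT and 43 KO mesenchymal cells had Id2 at 457 and 446 CPM, Id1 at 236 and 210.3 and Bmp7 at 39.8 and 33.6. The KO over WT ratio of Bmp4 in mesenchyme was 0.52 (0.146 to 1.53), within counting error.

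**Figure D2:**
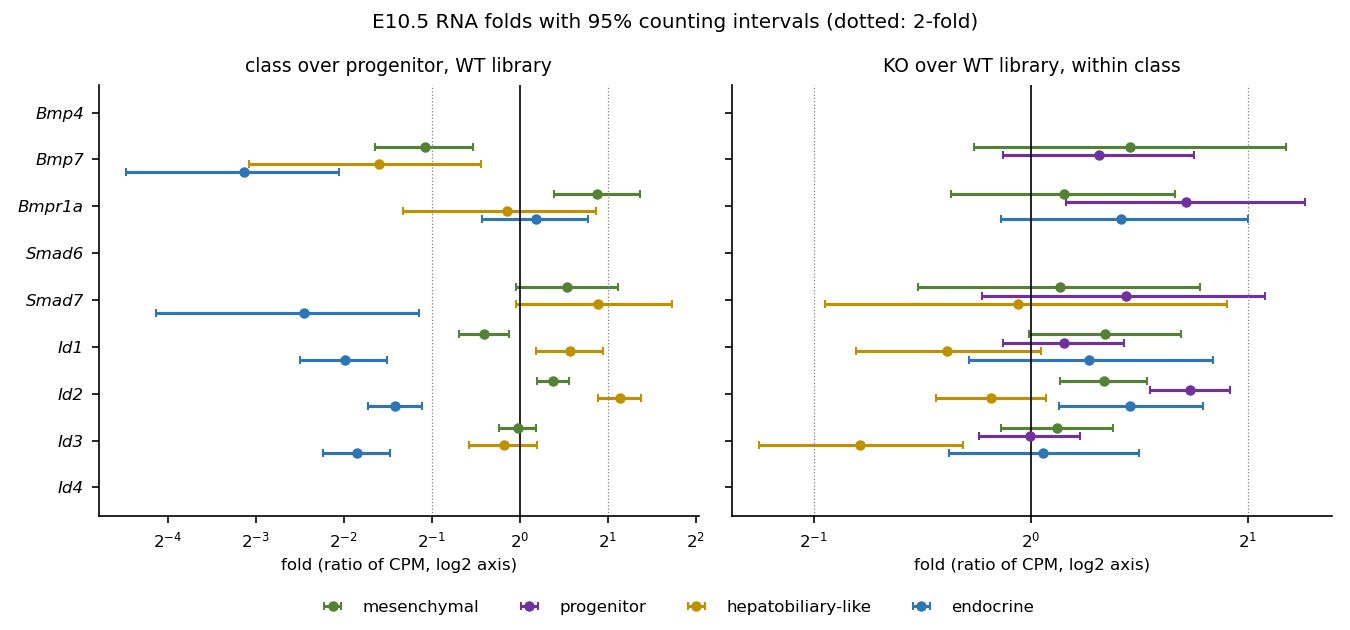
Ratios of CPM on a log2 axis for the genes with enough UMIs, with each class over progenitors in the WT library on the left and KO over WT within each class on the right. Bars are exact 95% intervals for counting error, and dotted lines mark 2-fold. Bmp4, Smad6 and Id4 have too few UMIs and are not drawn; the endocrine ratios of Bmp7, Smad7, Id1, Id2 and Id3 lie past 2-fold lower on the left, and no point lies past 2-fold on the right.

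The other genes of the pathway were taken as a list of 45, all in the RNA matrices: ligands, receptors, Smads, antagonists, regulators, other targets and the E-protein partners of Id. Against WT progenitors, 17 of them had enough UMIs in endocrine cells, and 3 were lower past 2-fold and 0 higher, 17.6% beside the 16.6% of all genes. They were Rgma, a BMP co-receptor (log2 ratio -1.83), Tcf3, an E protein (-1.19), and Bambi, a decoy receptor (-1.09). At least Rgma and Tcf3 met the UMI minimum through progenitors, where they were high, so this count says little about the list. The highest were Twsg1, a secreted BMP modulator (0.79), Skil (0.56) and Smad1 (0.34). In KO, 3 of 15 were lower (20% beside 16.8%), so the list was near the background in both libraries. The 3 were Fstl1 (-1.81), Tcf3 (-1.29) and Bambi (-1.17), with Twsg1 (0.34), Smad5 (0.17) and Tcf4 (-0.07) highest. The list's medians were 0.001 in WT and -0.33 in KO, beside 0.01 and 0.0052 over all genes tested. Among the E proteins, Tcf3 stood at 52.6 and 68.8 CPM in endocrine cells and 133 and 182 in progenitors. Tcf4, at 118 and 139 against 130.2 and 146 CPM, and Tcf12, at 112 and 121 against 112 and 134 CPM, were within 2-fold.

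Mesenchymal cells exceeded progenitors past 2-fold in 1 listed gene in each library, Smad5, a BMP transducer. It stood at 89.9 CPM in mesenchyme and 34.5 in progenitors in WT, and at 115 and 37.7 in KO, log2 ratios of 1.17 and 1.39, out of 16 and 14 genes with enough UMIs. Those counts are 6.25% and 7.14% of the list, near the 5.61% and 4.55% of all genes. In KO, Smad5 met the UMI minimum through mesenchyme, where it was high, so the KO count says little about the list. Next came Ski (0.90) and Tcf4 (0.56) in WT and Smurf2 (0.53) and Tcf4 (0.52) in KO. Bambi was lowest in both, at -0.62 and -0.74, with Rgma (-0.55) and Skil (-0.04) next in WT and Fstl1 (-0.50) and Gdf11 (-0.31) in KO. The ligand Gdf6 was found almost only in mesenchyme among the 4 classes, with 10 UMIs in WT and 12 in KO, 11.8 and 20.6 CPM. Progenitors had 0 and 1 Gdf6 UMIs, and this gene was picked after its values were seen.

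In hepatobiliary-like cells, Rgma was lower than in progenitors in WT, with 0 UMIs against 52 (35.8 CPM in progenitors, and up to 14.8 CPM allowed by the 0), as 1 of 14 genes with enough UMIs (7.14%, beside 5.48% of all genes). Rgma met the UMI minimum only through progenitors, so this count says little about the list. In KO 1 of 11 was lower (9.09% beside 3.39%), Fstl1, a secreted follistatin-like protein, at 76.2 CPM against 197. Fstl1 likewise met the UMI minimum through progenitors, where it was high, and the same limit holds for this count. Genotype separated few of the list. Fstl1 was the 1 gene of 16 past 2-fold in progenitors (6.25% beside 3.09% of all genes), at 75.8 CPM in WT and 197 in KO (log2 ratio 1.27), followed by Gdf11 (0.86) and Bambi (0.85), with Rgma (-0.04), Bmpr2 (0.10) and Smad5 (0.10) lowest. None of 15 genes in mesenchyme, 7 in hepatobiliary-like cells or 15 in endocrine cells passed 2-fold between genotypes, and Bambi had the highest ratio in mesenchyme (0.72) and in endocrine cells (0.77).

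Over the 8 combinations of class and library, the genes whose CPM was most like the mean of Id1, Id2 and Id3 among 10358 genes compared were Ckap2, Chek1 and Syne2, each with a Pearson r of 0.99. Ckap2 and Chek1 act in mitosis and in the replication checkpoint. For Bmp4 the nearest were Atp5g3, Alb and Greb1l, each with r of 0.95, on a Bmp4 level of few UMIs. Between members, Smad7 and Id2 had an r of 0.98, Id1 and Id2 0.96, Smad7 and Id1 0.95, and Id4 and Id1 -0.79. These 8 points share 2 libraries, and they differ in depth and in cell number, so the values describe the profiles in the plot of RNA levels by class.

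Chromatin was read from gene-level accessibility values, scaled by the authors so that each nucleus sums to 10000, for 838 WT and 700 KO nuclei at E10.5 and 2314 WT and 602 KO nuclei at E13.5. These values have no read counts behind them here, so their depth is unknown, and a difference between mean values counts here as past the threshold where the higher mean is at least 25% above the lower. In all nuclei, a difference in the mix of cell types and a difference per nucleus cannot be told apart. At E10.5 the 7 listed members lay close together between genotypes: Bmp4 averaged 1.45 in WT and 1.36 in KO, Bmp7 2.31 and 2.24, and Bmpr1a 1.12 and 1.19. Smad7 averaged 3.44 and 3.14, Id1 5.02 and 5.02, Id2 5.67 and 5.31, and Id3 4.76 and 5.17. None of the 7 passed this 25% threshold, where 3.76% of all genes did. Ptf1a averaged 2.43 in WT and 1.70 in KO.

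At E13.5 all 7 were lower in the KO library past 25%, against 45.8% of all genes past it in either direction. Bmp4 averaged 1.03 in WT and 0.684 in KO, Bmp7 2.52 and 1.32, Bmpr1a 1.26 and 0.941 and Smad7 2.90 and 1.93. Id1 averaged 4.59 and 3.29, Id2 4.36 and 3.08, and Id3 4.26 and 3.29. A cluster with raised red-cell (erythroid) markers, led by Slc4a1, Gypc and Tal1, made up 6.05% of WT and 45.2% of KO nuclei, and the members were low in it in both libraries, such as Id2 at 0.265 and 0.269 and Bmp7 at 0.145 and 0.196. Without that cluster none of the 7 passed 25%, where 14.3% of all genes did, and 4 of the 7, Smad7, Id1, Id2 and Id3, were slightly higher in KO, with log2 ratios of 0.14, 0.08, 0.22 and 0.10. Ptf1a without the cluster averaged 4.05 in WT and 1.77 in KO.

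**Figure D3:**
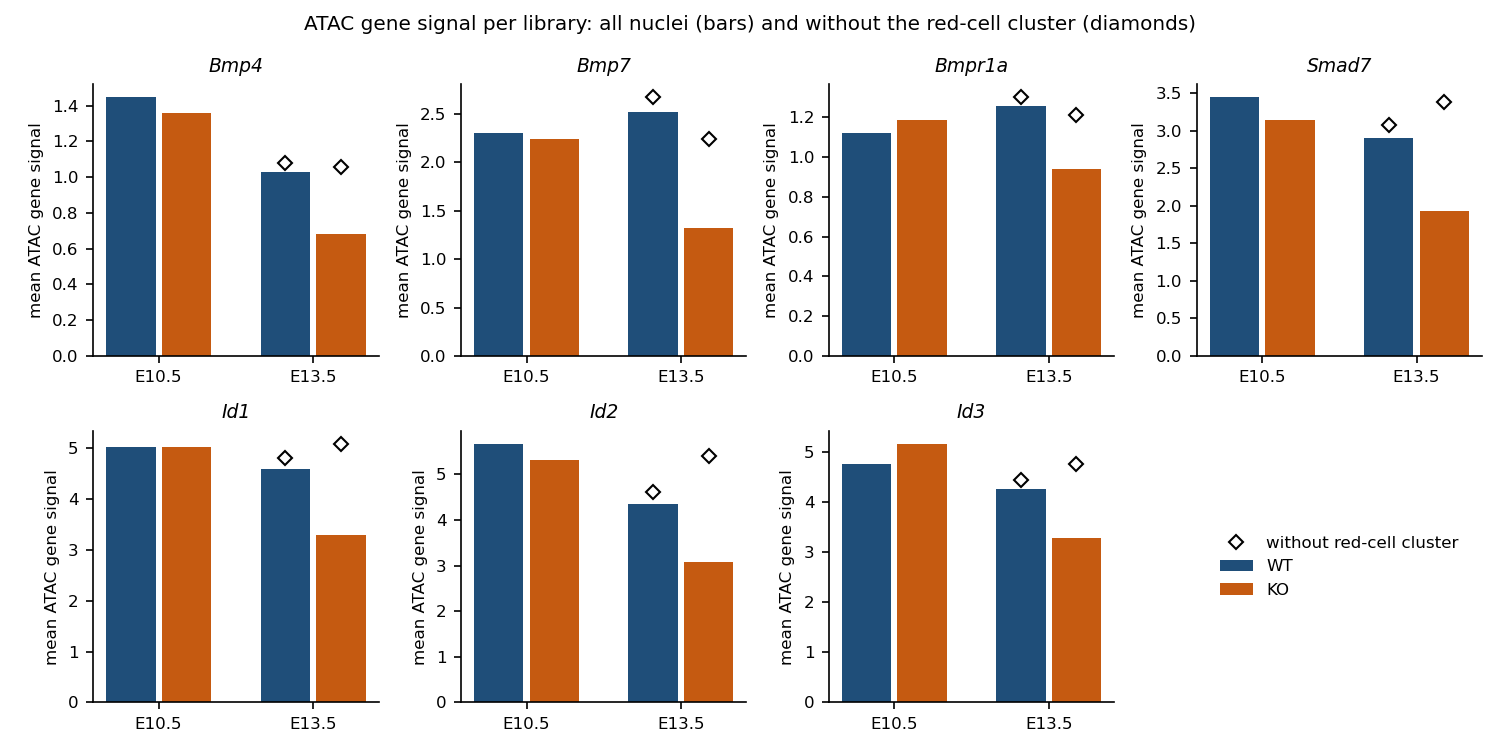
Mean accessibility value (authors' scaled signal, linear axis from 0) of the 7 listed genes in the 4 ATAC libraries. Bars are means over all nuclei of a library and diamonds are E13.5 means without the red-cell cluster, with no error bars. The E13.5 KO bar is lowest for all 7 genes, and its diamond is above the bar in each.

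Between the stages, 2 of the 7 members passed 25% in WT, against 21.1% of all genes, a share near that background. Bmp4 and Id2 were lower at E13.5, with log2 ratios of -0.49 and -0.38. In KO all 7 were lower, where 54.6% of all genes passed. Outside the red-cell cluster Bmp4 alone passed in each genotype, with log2 ratios of -0.42 in WT (background 19.7%) and -0.36 in KO (18.2%), and Bmpr1a was highest of the members in WT at 0.22. The Bmp4 mean there went from 1.45 to 1.08 in WT and from 1.36 to 1.06 in KO. The stages were different dissections, MPC tissue and pancreas, so stage and dissection cannot be told apart.

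The nuclei fell into 3 clusters at E10.5 and 4 at E13.5. An endocrine-like cluster was found at each stage (60 WT and 66 KO nuclei at E10.5, 383 and 49 at E13.5). Cluster 0, the most populous over both libraries of a stage, was left unnamed. In the E13.5 KO library it held 237 nuclei, fewer than the 272 of the red-cell cluster. No list named cluster 0 at E10.5: the highest, mesothelial, had a mean log2 excess of 0.17 with 0 of 3 markers raised, and the progenitor list had 0.10. At E13.5 the highest list of cluster 0 was the progenitor one (mean log2 excess 0.38, 7 of 9 markers raised), but hepatobiliary markers were also raised (0.30), which the naming rule does not allow. Id1, Smad7 and Bmp7 were lower in the endocrine-like cluster than in cluster 0 past 25% in all 4 libraries, Id2 and Id3 in 3 of them and Bmp4 in 1. At E10.5 in WT, 4 of 7 were lower (background 42.9%), with log2 ratios of -0.97 for Id1, -0.89 for Smad7, -0.62 for Bmp7, -0.60 for Id3 and, under the threshold, -0.30 for Id2. In KO at that stage 5 of 7 were lower (background 42.9%). At E13.5 the counts were 5 of 7 in WT (27.6%) and 5 of 7 in KO (49.2%). The background shares are high, and only in the E13.5 WT library was the members' share more than 2 times the background. The log2 ratios of Bmpr1a lay between -0.18 and 0.17, and those of Bmp4 between -0.64 and -0.12. In mean values, Id1 stood at 5.44 in cluster 0 of WT at E10.5 and at 2.78 among its endocrine-like nuclei, and at 5.50 and 3.36 at E13.5.

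Within cluster 0, the KO and WT libraries differed past 25% in 0 of 7 members at E10.5 (background 2.52%) and in 1 of 7 at E13.5 (12.4%), Bmp7, which averaged 2.91 in WT and 2.32 in KO (log2 ratio -0.32). The Id genes there averaged 5.50 and 5.31 for Id1, 4.68 and 5.20 for Id2 and 5.00 and 4.99 for Id3. A share of 1 in 7 is near the background. At E10.5 the small log2 ratios over all nuclei of Bmp4 (-0.09), Smad7 (-0.13), Id2 (-0.09) and Bmpr1a (0.08) had the other sign in cluster 0.

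**Figure D4:**
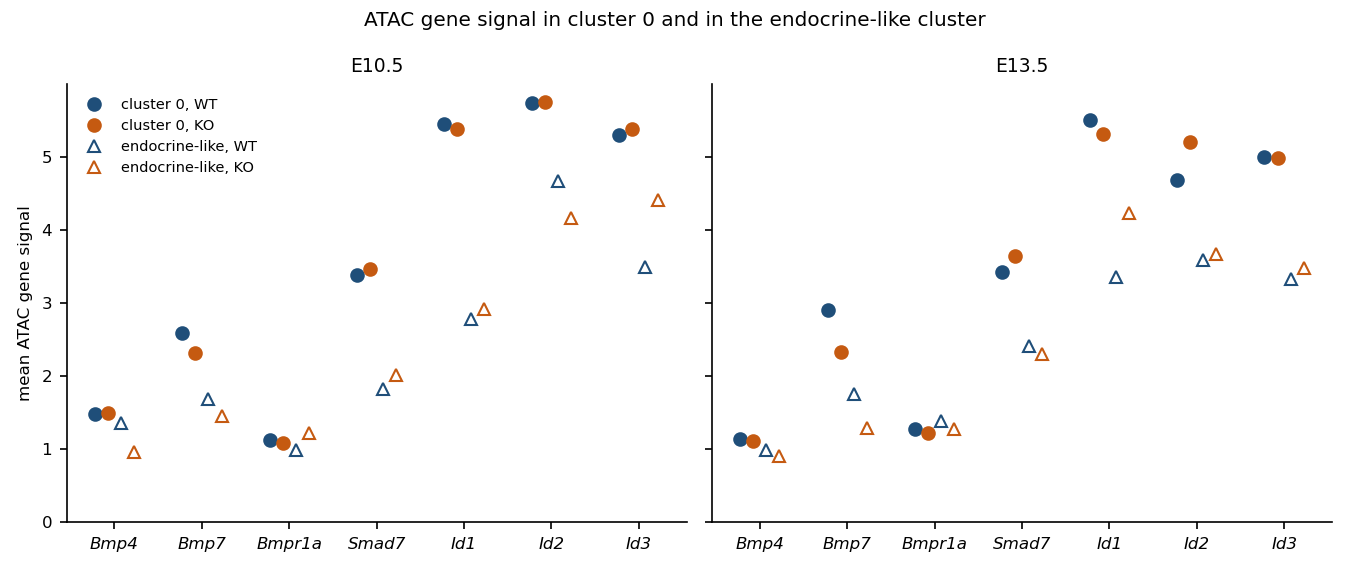
Mean accessibility value (authors' scaled signal, linear axis from 0) of the 7 listed genes in cluster 0 (circles) and in the endocrine-like cluster (triangles) at E10.5 and E13.5, 1 point per library and no error bars. Id1, Smad7 and Bmp7 are lower in the endocrine-like cluster in all 4 libraries, and Bmpr1a lies close to its level in cluster 0.

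Of the 45 pathway genes, 20 are listed in the ATAC matrices, and all 20 were above 0 in enough nuclei. At E10.5 none passed 25% between genotypes, with Bmpr2 (0.26), Smad4 (0.23) and Tcf12 (0.22) highest and Eng (-0.27), Smad1 (-0.21) and Fstl1 (-0.15) lowest on the log2 scale. At E13.5, 11 of 20 (55%) were lower in KO over all nuclei and 0 higher, near the 45.8% of all genes. Outside the red-cell cluster 2 were higher, Tbx3 (0.81) and Nbl1 (0.39), and 1 was lower, Twsg1 (-0.36), a share of 15% beside the background of 14.3%. Tbx3 is a T-box factor and Nbl1 a secreted BMP antagonist. Between stages outside that cluster, 2 were higher and 2 lower at E13.5 in WT, a share of 20% beside the background of 19.7%. Acvr2b (0.40), an activin and BMP receptor, was highest and Tbx3 (-0.84) lowest. In KO 4 were higher and 1 lower, a share of 25% beside the background of 18.2%. Nbl1 (0.54) was highest and Smad5 (-0.37) lowest there, and Tbx3 was at -0.20, under the threshold.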

How the data were processed

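Single-cell RNA and single-nucleus ATAC libraries, 6 in all, were analysed from the deposited matrices. The RNA values are UMI counts per gene and cell, per the file headers and values. The ATAC values are a signal per gene and nucleus that the authors scaled to a sum of 10000, judged from the deposited values. Per the submitters' processing notes the build was mm10. Not given in the sources used here are the aligner, the cell filter, the gene-score tool and how the ATAC genes were chosen. Columns of other samples numbered 0.

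Clustering of RNA cells used those with 1000 or more genes, in python 3.11.15 with leidenalg 0.10.2 and scanpy 1.11.5 (2000 variable genes without members or pathway list, 30 principal components, 15 neighbours, Leiden resolution 0.5, a cluster with 2 raised lists split at 0.3), and nuclei likewise at 0.3. A cluster took the name of its highest marker list under 4 conditions: a mean log2 excess of at least 0.3, at least 3 markers and more than 50% of the list raised, no other list with more of the 10 leading genes, and no second class list at both 0.3 and the best mean divided by 3. The rules for naming, for splitting and for the mixed cluster were set after seeing the data. Scrublet called 10 of 820 cells as doublets, and they were kept. Rebuilt class names can differ from the study's own.

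Counts were summed per class and library and given as CPM, with Poisson, Clopper-Pearson or conditional exact 95% intervals. A limit for a count of 0 is 3 counts. Genes entered a comparison with at least 50 UMIs over both groups, or above 0 in 10% of nuclei. Past the threshold means 2-fold on log2(CPM + 10), or a higher ATAC mean at least 25% above the lower. The ratio script was tested on simulated data. Named are all members and, in some comparisons, the 3 highest and lowest pathway genes, with fewer or none named in the others. The members and lists were chosen with earlier results of these data known. Other settings tried were cell filters, resolutions, scalings, pseudocounts, thinning, doublets and left-out clusters. With 1 library per group no test was run.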

Additional observations from a re-analysis of the deposited data

How the results depend on the processing

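Each count of members past the threshold was recomputed under the other settings, and 91 of 109 such counts stayed within 1.5 times the reported one. For mesenchymal over progenitor cells in WT the count of 0 became 1 with no cell filter, at least 2000 detected genes, Leiden resolution 0.3 or 0.8, each cell scaled to its own total, median-of-ratios scaling, a pseudocount of 1 CPM, mixed cells counted with the classes they match, or progenitor cluster 3 alone, the last 2 added after seeing the data. The member was Bmp7 in each case. KO over WT in mesenchyme became 1 with no cell filter (Smad7), KO over WT in hepatobiliary-like cells became 1 with no UMI minimum (Smad6), and hepatobiliary-like over progenitor cells in WT fell from 2 to 1 with cluster 3 alone. Endocrine over progenitor cells in WT became 2 of only 2 genes tested after thinning.

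In ATAC, the 7 lower members of KO over WT at E13.5 became 0 without the red-cell cluster, 2 as the share of nuclei above 0 and 1 in cluster 0 alone (added later). The stage counts without the red-cell cluster were 1 in WT and 1 in KO. Log2 ratios of KO over WT changed sign without that cluster for Smad7 (0.14), Id1 (0.082), Id2 (0.22) and Id3 (0.10), as shares for Bmp4 (0.14), Bmpr1a (0.063) and Id3 (0.13), and in cluster 0 for Smad7 (0.090) and Id2 (0.15). Stage ratios in KO changed sign without it for Bmpr1a (0.030), Smad7 (0.11), Id1 (0.018) and Id2 (0.022). Of 603 member ratios, these 13 turned from past the threshold to the other sign and 58 moved beyond their limits. Of ratios under the threshold, 36 RNA and 13 ATAC ones also took the other sign under some setting, among them mesenchymal KO over WT at resolution 0.8 for Id1 (-0.16) and Id2 (-0.03). Hepatobiliary-like cells had no cluster of their own with no cell filter or at resolution 0.3, so their comparisons were not run there. No paired analysis was possible because each group had 1 library. Few UMIs limit Bmp4, Smad6 and Id4, and few cells the WT hepatobiliary-like class.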

Other observations

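An RNA cluster that met no name, with 83 WT and 19 KO cells, was led by Ube2c, Sox17, Cks2 and several histone genes, and its proliferation markers summed to 1708 and 2983 CPM in WT and KO. Its Id levels were like those of the progenitor class in WT, with Id1 at 257 CPM, Id2 at 409 and Id3 at 359.9. In KO, where 19 cells gave the values, Id1 stood at 276 CPM, Id2 at 922 (interval 728 to 1153) and Id3 at 252. Bmp7 was 51.4 CPM in WT (interval 31.0 to 80.3), and the KO value rests on 1 UMI. Ptf1a stood at 48.7 CPM in its WT cells and had 0 UMIs in its KO cells.

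Of the ATAC clusters, cluster 1 held nuclei with few genes above 0, a median of 2070 in WT at E10.5 and 1795 at E13.5. Its mean Id2 value was 5.76 in WT and 4.58 in KO at E10.5, beside 5.74 and 5.75 in cluster 0. At E13.5 it was 5.09 and 8.31, beside 4.68 and 5.20, with 44 KO nuclei behind the KO value.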
